A study of Mus musculus with 17 samples.

Results

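Genomic imprinting marks a gene copy by the parent it came from, and the marks here are control regions whose DNA is methylated on the copy inherited from the father. The 8 genes described are those long known to sit under such regions and were taken by name from 23891 gene symbols in the files, namely H19, Igf2, Meg3, Rian, Mirg, Dlk1, Dio3 and Rasgrf1. Each was found, and each is given by its RefSeq transcript with the highest mean FPKM (fragments per kilobase of transcript, scaled for depth, so a level per length) over the 17 samples. RNA-seq of mouse cells covered 4 lines of SSCs (spermatogonial stem and progenitor cells of adult testis), 6 lines of MASCs (multipotent cells that arose from SSCs by spontaneous conversion in culture), 2 ESC lines, 2 iPS cell lines, 2 cultures of haematopoietic cells (HSCs) and 1 MEF (embryonic fibroblast) sample. The study asked how SSCs and MASCs relate to pluripotent cells.

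SSC.1 and SSC.2, MASC.1 and MASC.2, and ESC.1 carried the strain label Oct4-GFP. The label 129mix covered SSC.4, MASC.3, MASC.4, ESC.2, both iPS lines and the MEF sample. SSC.3 and both HSC cultures were C57Bl/6J, and MASC.5 and MASC.6 were Gt(ROSA26)Sor-lacZ. The iPS lines were made with doxycycline from tetO-4F2A x H3.3B-HA E13.5 fibroblasts, and the MEF sample came from E13.5 embryos of H3.3B-HA mice. MASCs and iPS cells began as colonies picked by hand from a plate. The 14 lines of SSCs, MASCs, ESCs and iPS cells had a MEF feeder layer. For SSCs these were bought, and no source states that the sequenced MEF sample was a feeder. SSCs alone were plated on gelatin for 2 h to leave feeder cells behind. HSCs were lineage-negative bone marrow cells on human endothelial feeders. Per the paper, the MASC and ESC lines were subcloned, and no source states whether lines of the same strain share a parent line. No source states that lines of one group came from separate animals, so p-values measure the spread between these lines.

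At these loci a given gene is active on a single parental copy, and which genes are on there depends on the methylation of the control region. At H19-Igf2 the unmethylated maternal region binds the insulator protein CTCF, which leaves H19, a noncoding RNA, active on that copy, whereas Igf2, a fetal growth factor, is made from the methylated paternal copy. At Dlk1-Dio3 the noncoding RNAs Meg3, Rian (host of box C/D snoRNAs) and Mirg (host of miRNAs) come from the maternal copy, and Dlk1 (a Notch-family ligand homologue), Rtl1 and Dio3 (the deiodinase that inactivates thyroid hormone) from the paternal copy. Rasgrf1, an exchange factor that activates Ras, is made from the paternal copy. In the male germ line the control regions are methylated on both copies, and in pluripotent cell lines the Meg3 group is known for variable silencing. DNA methylation and the parental origin of the reads were not measured in the files used here.

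The control region of H19 is shown by the 3 matches to a CTCF-type motif of 14 letters, found in the 5000 bases upstream of the H19 start, since this element sets which of the 2 genes is on. The gene lies at chr7:149761437-149764051 (mm9, minus strand), and the matches begin 2163, 2618 and 3888 bases upstream of its start. The matched letters (capitals) are given with 15 bases on each side, on the strand of H19, and the opposite strand held 0 matches. The letters were chosen for what is known of this element, so their presence is no finding. Among 3735 genes of chromosomes 7, 9 and 12, 2 genes (0.0535%) had as many matches in this window. The count left out neither H19 itself nor genes whose upstream windows overlap its own, such as Mir675 within H19.

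H19 upstream site 1: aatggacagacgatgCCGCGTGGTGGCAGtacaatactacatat

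H19 upstream site 2: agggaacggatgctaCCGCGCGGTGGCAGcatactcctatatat

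H19 upstream site 3: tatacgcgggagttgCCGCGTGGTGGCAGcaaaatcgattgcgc

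These windows are chr7:149766199-149766242, chr7:149766654-149766697 and chr7:149767924-149767967 (mm9), between genes. In the 20000 bases upstream of Meg3 (chr12:110779206-110809939, mm9, plus strand), the 200 bases with the most copies of TGCCGC, the hexamer bound by ZFP57 when methylated, held 5 copies on the plus strand and 0 on the other. The window is shown because it lies upstream of the 3 RNAs that differed most between ESCs and the other cells. Its first copy begins 12700 bases upstream of Meg3, and 4 of 3733 genes (0.107%) had as many copies in any such window. That count left out neither Meg3 itself nor genes whose upstream stretches overlap its own. The copies are in capitals, and the sequence is chr12:110766481-110766680 (mm9), between Dlk1 and Meg3.

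Meg3 upstream window: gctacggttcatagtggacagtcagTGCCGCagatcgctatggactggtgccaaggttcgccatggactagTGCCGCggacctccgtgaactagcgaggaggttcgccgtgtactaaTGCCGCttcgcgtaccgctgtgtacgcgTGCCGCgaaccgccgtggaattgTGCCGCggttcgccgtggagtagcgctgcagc

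The first of the 2 Meg3 promoters in RefSeq (chr12:109540746-109541045, GRCm38.p6, plus strand) held TGACGTCA, the cAMP response element, 57 bases upstream of the start. A match to TATAAA on the opposite strand, written TTTATA here, begins 29 bases upstream. On either strand, the former was in 1.79% and the latter in 13.6% of 32851 promoters of 300 bases. Both are in capitals, together with an overlapping copy of TATAAA on the plus strand, which begins nearer to the start.

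Meg3 promoter 1: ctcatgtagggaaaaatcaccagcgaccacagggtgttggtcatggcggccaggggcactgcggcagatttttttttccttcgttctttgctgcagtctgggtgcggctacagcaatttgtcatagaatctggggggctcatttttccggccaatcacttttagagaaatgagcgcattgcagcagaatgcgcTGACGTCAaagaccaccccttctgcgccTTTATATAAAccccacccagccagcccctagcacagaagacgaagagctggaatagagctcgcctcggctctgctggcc

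The files held 32661 transcripts with 13532 to 16272 at 1 FPKM or more per sample, and the coverage at 1 FPKM was 1.26 to 3.24 reads per base. They hold no read counts but give the confidence bounds of Cufflinks for each value, which cover the estimate within 1 sample and not the spread between lines. The labelled cell types carried their markers. The summed level of 6 SSC markers was 591 to 721 FPKM in SSCs and 8.50 to 34.6 in MASCs, and that of 6 pluripotency markers was 1389 to 1625 FPKM in MASCs and 6.14 to 12.9 in 3 SSC lines. SSC.1 stood apart with 105.8 FPKM of pluripotency markers. The 16 fibroblast markers (collagens and other matrix genes, and mesenchymal transcription factors) differed widely between lines. Their median level, as a percentage of that in MEF, was 18.5 in MASC.1, 10.9 in SSC.3, 6.64 in SSC.1 and 5.19 in ESC.1, and between 0.172 and 2.89 in the other 10 feeder-grown lines. No marker of the 16 was at 0 in any of these 14 lines. HSC.2 had a median of 8.73%, although HSCs had no mouse fibroblast feeder.

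**Figure D1:**
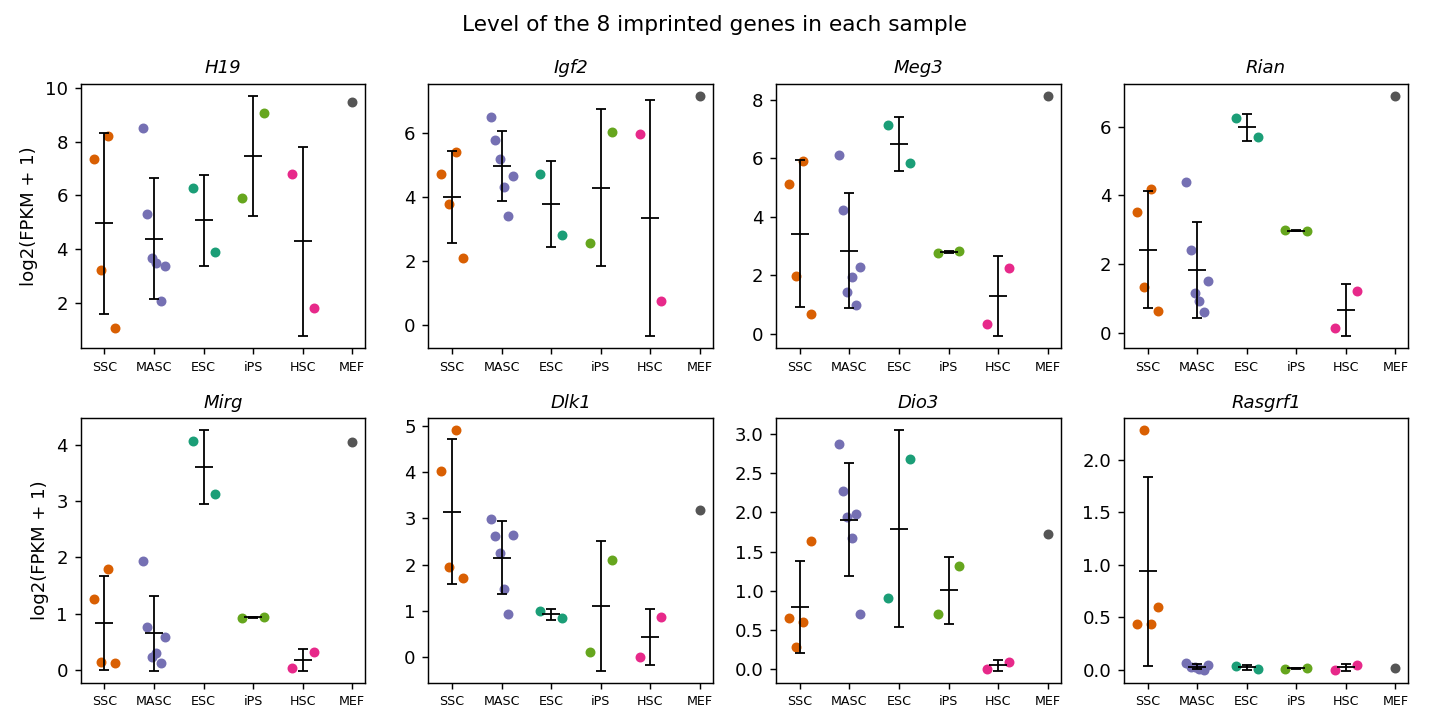
Level of each gene as log2(FPKM + 1), 1 panel per gene with its own scale. Each point is 1 sample, and the bars give the mean and SD of a group of 2 or more. Meg3, Rian and Mirg stand higher in both ESC lines than in most SSCs and MASCs, and Rasgrf1 stands higher in the 4 SSC lines than in the other samples.

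H19 differed more among the lines of SSCs and MASCs than between the means of these cell types. Its level was 162, 8.27, 294 and 1.09 FPKM in SSC.1 to SSC.4, and 361, 38.1, 11.6, 10.1, 3.17 and 9.35 FPKM in MASC.1 to MASC.6. ESC.1 had 76.8 and ESC.2 13.7 FPKM, iPS.1 58.2 and iPS.2 534, HSC.1 109 and HSC.2 2.45, and MEF 709 FPKM. The 3 highest levels among SSCs and MASCs were in MASC.1, SSC.3 and SSC.1, which also had the highest fibroblast markers of these lines, and the part of feeder RNA in them was not tested. In bulk RNA, fewer cells of a type and less RNA per cell cannot be told apart. With limma on log2(FPKM + 1), fitted to 12 lines (all but iPS cells, HSCs and MEF), the difference between MASCs and SSCs was -0.57 ± 1.66 (SE; 95% interval -4.28 to 3.15; adjusted p = 0.896 by limma), that between ESCs and SSCs 0.12 ± 2.22, and that between MASCs and ESCs -0.69 ± 2.1. All 3 groups overlapped. Without the 4 lines with a fibroblast median above 5% of MEF, the first of these differences turned to 1.43 (adjusted p = 0.375).

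Igf2, the partner of H19, was present in all feeder-grown lines. It is given by its main transcript (chr7:149836673-149843386, mm9), which held 72.6% of the mean FPKM of its 3 transcripts. SSC.1 to SSC.4 had 25.1, 12.8, 41.1 and 3.22 FPKM, and MASC.1 to MASC.6 had 90.1, 53.8, 35.7, 18.7, 9.56 and 23.9 FPKM. In the ESC lines it was at 25.4 and 6.05 FPKM, in the iPS lines at 4.88 and 64.1, in the HSC cultures at 61.3 and 0.651, and in MEF at 143 FPKM. The ranges of SSCs and MASCs overlapped. MASCs were above SSCs by 0.98 ± 0.78 on the log2 scale (95% interval -0.78 to 2.74), which did not pass the test (adjusted p = 0.412, limma). Single SSC lines moved this value, to 0.34 without SSC.4 (adjusted p = 0.837) and to 1.45 without SSC.3 (adjusted p = 0.246). Among Oct4-GFP lines Igf2 was higher in MASCs in 4 of 4 pairs of lines, by 1.9 on the log2 scale, and among 129mix lines in 2 of 2 pairs, by 2.67, and with strain as a block the difference was 2.21 (adjusted p = 0.0115, limma). With that block, 15% of all transcripts were called. SSC.4 is the single SSC line of the 129mix strain. A minor transcript model of the gene (chr7:149836673-149846940, 5.9% of the gene's mean FPKM) rose in MASCs by 1.69 ± 0.37 (adjusted p = 0.00659, limma), from 0.0842 to 0.833 FPKM in SSCs to 1.71 to 6.39 FPKM in MASCs with no overlap. The other minor model, with 21.5% of the gene's mean FPKM, was not called. It was at 2.72 to 7.5 FPKM in SSCs and 5.58 to 21.7 FPKM in MASCs, which overlap. Cufflinks divides reads among the 3 overlapping models, so the level of a single model is uncertain. With the models summed, the difference between MASCs and SSCs was 1.12 (adjusted p = 0.255, limma).

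Among SSCs and MASCs the ratio of H19 to Igf2 fell into a low and a high range. It was 0.324, 0.537, 0.332 and 0.391 in MASC.3 to MASC.6, 0.708 in MASC.2, 0.645 in SSC.2 and 0.338 in SSC.4, so that Igf2 exceeded H19 in these 7 lines. In SSC.1, SSC.3 and MASC.1 the ratio was 6.46, 7.15 and 4, near the 4.96 of MEF, and these were the 3 lines of the 2 groups with the highest fibroblast markers. Both ESC lines lay between, at 3.02 and 2.27. The iPS lines had the highest ratios of all 17 samples, 11.9 and 8.33, although their fibroblast medians were 0.172% and 0.782% of MEF. No test was run on these ratios.

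Mir675, the miRNA cut from an exon of H19, (chr7:149762969-149763052, mm9) was at 40.0 FPKM in MASC.2 and 18.6 FPKM in HSC.2 and at or under 0.017 FPKM in the other 15 samples, MASC.1, iPS.2 and MEF with their high H19 included. Mir483, within Igf2, was at 23.9 FPKM in MASC.6 and listed at 0 in the other 16. Rows of such short RNAs rest on few fragments in a library of long RNA. The mature products of Mir675, with the seed (bases 2 to 8) in capitals, are from RefSeq (GRCm38.p6) and are shown because H19 is their precursor.

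mmu-miR-675-5p: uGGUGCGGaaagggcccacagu

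mmu-miR-675-3p: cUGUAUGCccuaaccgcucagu

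Meg3, Rian and Mirg were the genes of the 8 with the widest gap between ESCs and the other stem cells. Meg3 stood at 140 FPKM in ESC.1 and 56.5 in ESC.2. SSC.1 to SSC.4 had 34.2, 2.88, 59.6 and 0.582 FPKM, and MASC.1 to MASC.6 had 68.8, 17.9, 1.68, 2.86, 0.966 and 3.83 FPKM. The iPS lines had 5.84 and 6.09 FPKM, the HSC cultures 0.244 and 3.78, and MEF 283 FPKM. Only SSC.3 and MASC.1 among the 10 SSC and MASC lines exceeded ESC.2. These were the 2 lines with the most fibroblast marker RNA. The difference between MASCs and ESCs was -3.66 ± 1.65 (95% interval -7.37 to 0.05; adjusted p = 1, unadjusted p = 0.0525, limma), that between ESCs and SSCs was 3.07 ± 1.75 (adjusted p = 0.271), and that between MASCs and SSCs -0.59 ± 1.31 (adjusted p = 0.832). With strain as a block, where SSC.3 has no weight, the ESC-SSC difference was 4.37 (adjusted p = 0.034, limma). With the replicate number as a block it was 2.13 (adjusted p = 0.526).

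Rian (chr12:110842155-110899921, mm9) was at 75.5 and 51.1 FPKM in the ESC lines, above every SSC and MASC line. Its levels were 10.5, 1.5, 17 and 0.565 FPKM in SSC.1 to SSC.4 and 19.9, 4.31, 1.24, 0.887, 0.519 and 1.83 FPKM in MASC.1 to MASC.6. The iPS lines had 6.89 and 6.83 FPKM, the HSC cultures 0.0905 and 1.3, and MEF 119 FPKM. ESCs did not overlap with SSCs, MASCs or iPS cells. The fitted difference from SSCs was 3.56 ± 1.21 (95% interval 0.86 to 6.27), short of the threshold at an adjusted p of 0.0648 (limma), and MASCs were at -4.15 ± 1.14 relative to ESCs (unadjusted p = 0.00483, adjusted p = 1). The ESC-SSC difference passed when SSC.3 was left out (4.15, adjusted p = 0.0389, limma) and when the fit took in all 17 samples (adjusted p = 0.0383).

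Mirg (chr12:110973191-110987667, mm9) was the single gene of the 8 to pass the test in any main comparison. It had 15.7 and 7.77 FPKM in the ESC lines, against 1.39, 0.0966, 2.46 and 0.0862 FPKM in SSC.1 to SSC.4 and 2.8, 0.685, 0.17, 0.233, 0.0819 and 0.498 FPKM in MASC.1 to MASC.6. The iPS lines had 0.902 and 0.922 FPKM, the HSC cultures 0.0278 and 0.246, and MEF 15.6 FPKM. ESCs did not overlap with any other stem cell group. Mirg was higher in ESCs than in SSCs by 2.77 ± 0.61 on the log2 scale (95% interval 1.4 to 4.14; adjusted p = 0.01, limma). The call was lost without ESC.1 (2.31, adjusted p = 0.0969) and with the replicate number as a block (2.57, adjusted p = 0.0639). MASCs were lower than ESCs by a similar amount, -2.95 ± 0.58 (95% interval -4.24 to -1.65), which did not pass after adjustment over all transcripts (adjusted p = 0.508, unadjusted p = 0.000529).

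In the comparison of iPS cells with ESCs, fitted over all 17 samples, the same 3 RNAs were lower in both iPS lines than in both ESC lines. The differences were -3.69 ± 1.88 for Meg3, -3.01 ± 1.28 for Rian and -2.66 ± 0.64 for Mirg (adjusted p = 0.712, 0.573 and 0.14, limma), with unadjusted p of 0.0741, 0.038 and 0.00148. The comparison shares its ESC lines with the others. The 2 iPS lines were close to one another in these RNAs and not in H19, which was 58.2 FPKM in one and 534 in the other.

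**Figure D2:**
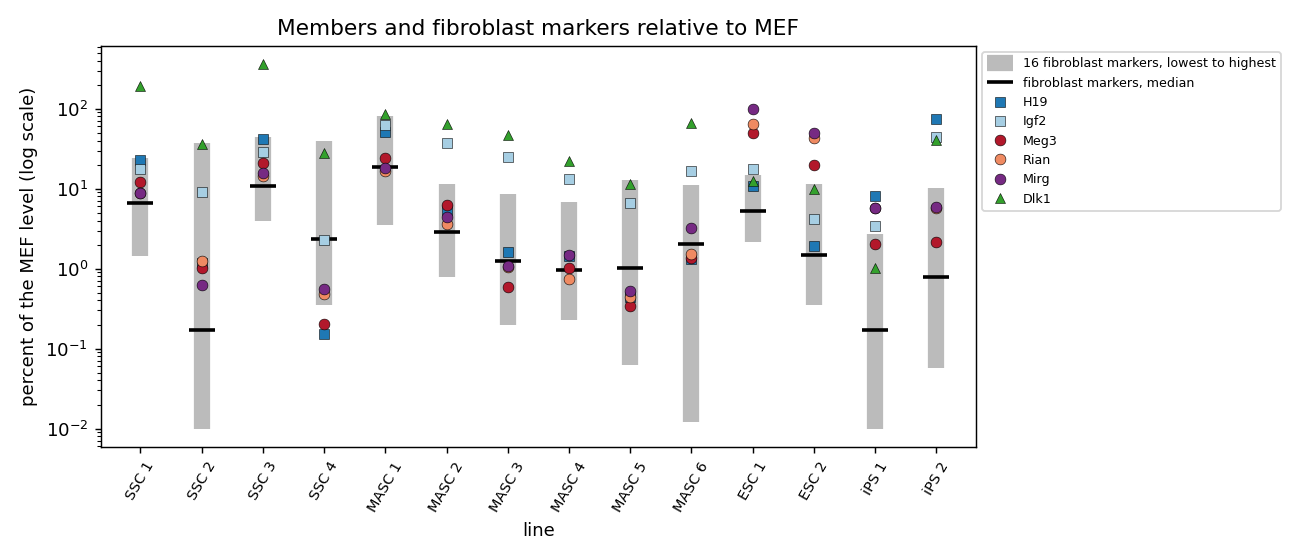
Level of 6 genes in each feeder-grown line as a percentage of the level in MEF (log scale). The grey bar spans the lowest to highest of 16 fibroblast markers, with values under 0.01 drawn at 0.01, and the black line is their median. Meg3, Rian and Mirg lie above the bar in both ESC lines, and inside it or below it in every SSC and MASC line. Each of them lies above the median in 3 of 4 SSC lines.

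MEF had the highest level of H19, Igf2, Meg3 and Rian among the 17 samples, so each feeder-grown line was set against its own fibroblast markers. In ESC.1 Meg3, Rian and Mirg were at 49.4%, 63.6% and 100% of MEF while the highest of the 16 markers was at 15%. In ESC.2 they were at 20%, 43% and 49.7% with the highest marker at 11.3%. In no SSC or MASC line was any of the 3 above the highest marker, which reached 37.2% in SSC.2, where the median was 0.173%. Each of the 3 was above the marker median in 3 of 4 SSC lines. Among 6 MASC lines, Meg3 was above it in 3, Rian in 1 and Mirg in 3. In MASC.1 Meg3, Rian and Mirg were at 24.3%, 16.7% and 17.9% with a marker median of 18.5%. In SSC.3 they were at 21.1%, 14.3% and 15.8% with a median of 10.9%. In iPS.1, with a highest marker of 2.75%, Rian and Mirg were at 5.8% and 5.77% and Meg3 at 2.06%. In iPS.2 they were at 5.75%, 5.9% and 2.15%, all below its highest marker of 10.2%. Since the sequenced MEF may differ from the feeders, such percentages describe the lines and do not estimate a share of cells.

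The proportion of the 3 RNAs to one another also differed between lines. Mirg was 0.112 and 0.137 of Meg3 in the ESC lines and 0.154 and 0.152 in the iPS lines. It was 0.0406 in MASC.1, 0.0382 in MASC.2, 0.0407 in SSC.1 and 0.0413 in SSC.3, and 0.0552 in MEF. In MASC.3, MASC.4 and MASC.6 the ratio was 0.101, 0.0814 and 0.13 at Mirg levels of 0.17 to 0.498 FPKM, and lines with Mirg under 0.1 FPKM were left out. Rian was 0.541 and 0.904 of Meg3 in ESCs, 1.18 and 1.12 in iPS cells, and 0.42 in MEF. It was 0.286 to 0.308 in SSC.1, SSC.3 and MASC.1. MASC.2 and MASC.4, with lower fibroblast markers, had 0.24 and 0.31. The other SSC and MASC lines lay between 0.479 and 0.971. The iPS lines had the highest ratios of both kinds, and the ESC range of Rian to Meg3 overlapped with that of SSCs and MASCs.

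**Figure D3:**
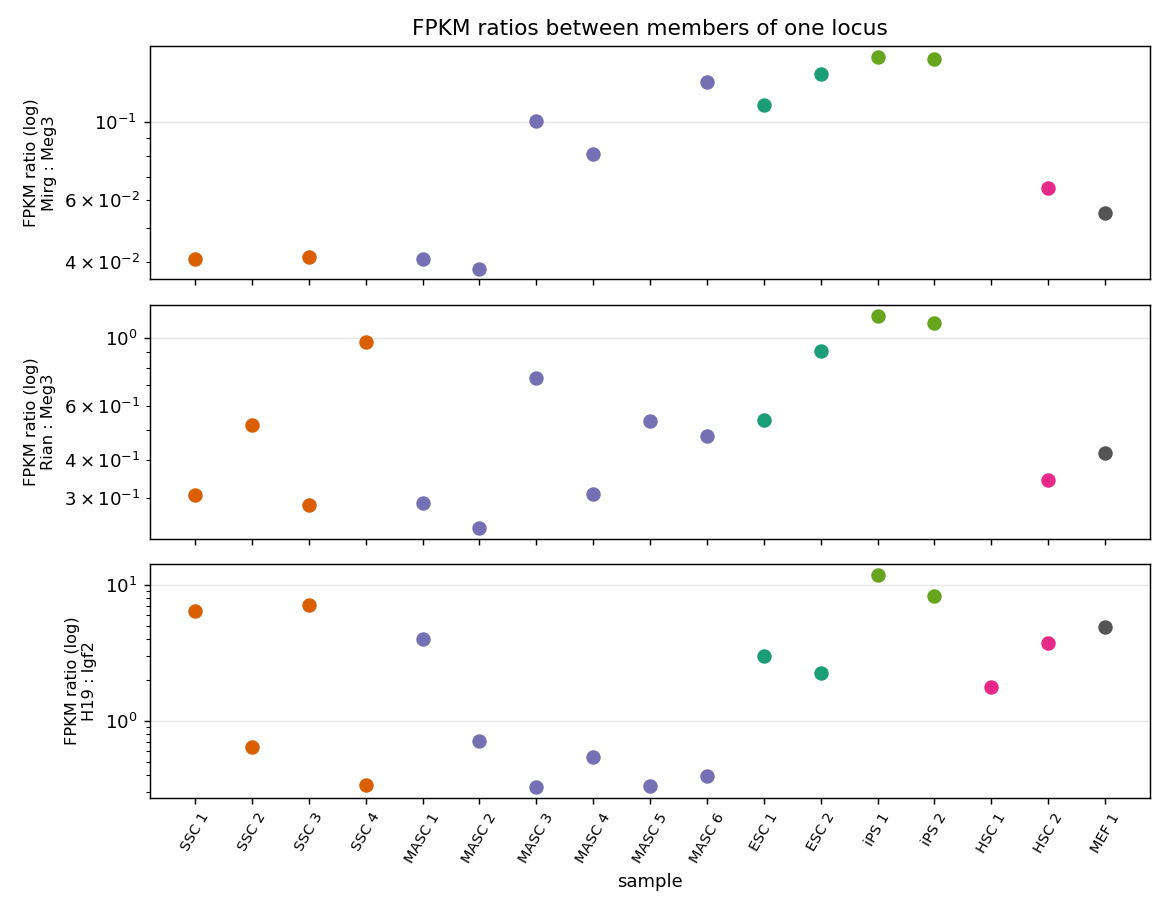
FPKM ratios of Mirg to Meg3, Rian to Meg3 and H19 to Igf2 in each sample, on log axes, coloured by cell type. Ratios with a gene under 0.1 FPKM are not drawn. SSC.1, SSC.3 and MASC.1 lie close to one another in all 3 panels, and the iPS lines lie at the top of each.

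Dlk1 (chr12:110691665-110701546, mm9), a gene of the paternal copy of the same locus, was low in both ESC lines. Among SSCs it was highest in SSC.3 and SSC.1, which also had the most Meg3 of that group (59.6 and 34.2 FPKM). How Dlk1 and the noncoding RNAs move relative to each other was not tested. SSC.1 to SSC.4 had 15.3, 2.87, 28.9 and 2.26 FPKM, MASC.1 to MASC.6 had 6.89, 5.11, 3.74, 1.76, 0.918 and 5.28, and the ESC lines had 1.01 and 0.795 FPKM. The iPS lines had 0.0819 and 3.29 FPKM, HSC.1 was close to 0 and HSC.2 at 0.811 FPKM, and MEF had 8.02 FPKM. Both ESC lines were below all 4 SSC lines, by 2.22 on the log2 scale (difference -2.22 ± 0.91, 95% interval -4.26 to -0.19, adjusted p = 0.12, limma). MASCs overlapped with both groups. In SSC.1 and SSC.3 Dlk1 was at 190% and 361% of MEF, the highest fibroblast markers of those lines being at 24.3% and 44.7%.

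Dio3 (chr12:111517440-111519307, mm9), at the other end of the locus, was higher in most MASCs than in most SSCs. Its levels were 0.578, 0.223, 0.515 and 2.11 FPKM in SSC.1 to SSC.4 and 6.29, 3.84, 2.86, 2.2, 2.95 and 0.628 FPKM in MASC.1 to MASC.6. ESC.1 had 0.877 and ESC.2 5.4 FPKM, the iPS lines 0.631 and 1.48, HSC.1 was listed at 0 and HSC.2 at 0.0694, and MEF had 2.3 FPKM. SSC.4 and MASC.6 made the ranges overlap. The difference was 1.11 ± 0.47 (95% interval 0.05 to 2.18, adjusted p = 0.11, limma), and without MASC.6 it was 1.35 (adjusted p = 0.0433). Dio3 was at 91.8% of MEF in SSC.4 and 27.3% to 273% in MASCs. It was above the highest fibroblast marker in 6 of 6 MASC lines and 2 of 4 SSC lines. The same held in 2 of 2 ESC lines and 2 of 2 iPS lines. MEF itself had only 2.3 FPKM.

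Rasgrf1 (chr9:89804613-89921817, mm9) had its highest levels in SSCs. It is given by its main model, which held 83.5% of the gene's mean FPKM. SSC.1 to SSC.4 had 0.351, 3.85, 0.356 and 0.51 FPKM. The highest of the 6 MASC lines was at 0.047 FPKM, the median was 0.0199 and MASC.5 was listed at 0. The bounds of Cufflinks were 0.397 to 0.622 FPKM in SSC.4 and 3.54 to 4.16 in SSC.2, against 0.0137 to 0.0803 in MASC.1, the highest MASC line. The minor model (16.5% of the mean) was at 0.066 to 0.308 FPKM in SSCs, 0.189 in MASC.2 and 0.123 in HSC.2. ESCs had 0.0269 and 0.00571 FPKM, iPS cells 0.00768 and 0.0132, HSC.1 was close to 0, HSC.2 had 0.0331 and MEF 0.0157 FPKM. In the main model SSCs did not overlap with MASCs or ESCs. On the log2(FPKM + 1) scale, which understates changes of low genes, MASCs differed by -0.91 ± 0.33 (95% interval -1.64 to -0.18; adjusted p = 0.0611, limma) and ESCs by -0.91 ± 0.44 (adjusted p = 0.184). Both values rested on SSC.2 for their size, since without it they were -0.46 ± 0.03 (adjusted p = 2.77e-05, limma) and -0.47 ± 0.04 (adjusted p = 0.000184), with a smaller spread and under the size required for a call. With a pseudocount of 0.1 both passed, at -2.8 (adjusted p = 0.00344) and -2.86 (adjusted p = 0.0205). MEF, at 0.0157 FPKM, was below all 4 SSC lines.

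**Figure D4:**
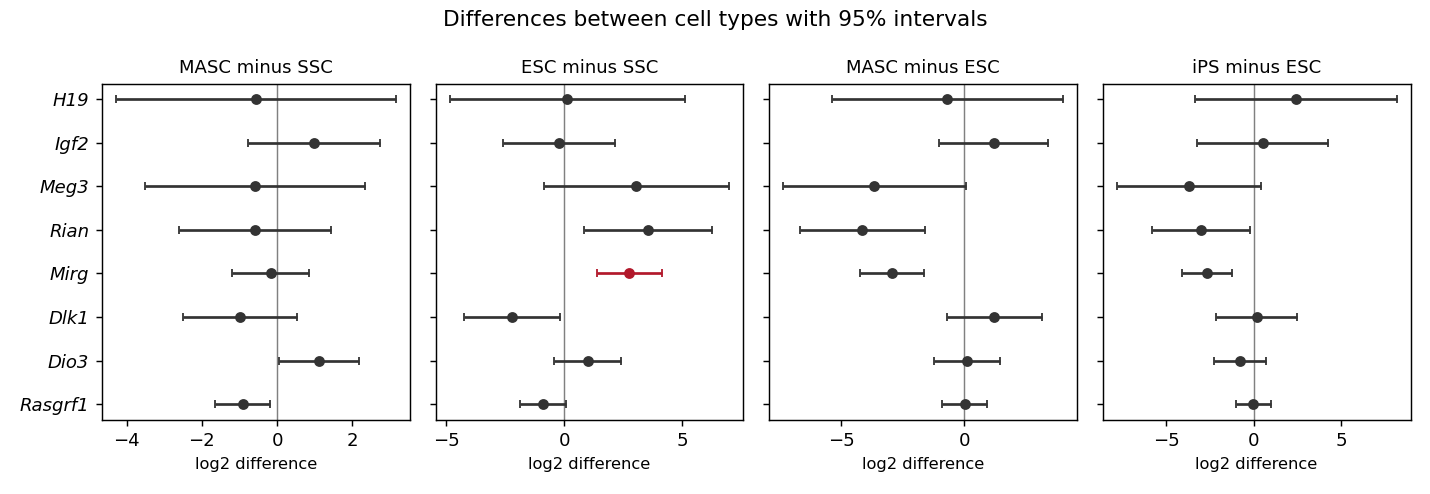
Fitted log2 differences of the 8 genes in 4 comparisons, with 95% intervals from limma; each panel has its own axis. Mirg in ESC minus SSC (red) passed the test, and the intervals of Rian and Mirg lie on 1 side of 0 in MASC minus ESC and in iPS minus ESC.

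Counted together, 0 of the 8 genes were called in MASC minus SSC (adjusted p under 0.05 and a log2 difference of at least 1, limma), against 15.6% of all 32661 transcripts (6.04% higher, 9.6% lower), and 2 of 8 had an unadjusted p under 0.05, against 39.9%. In ESC minus SSC 1 of 8 was called higher and 0 lower, against 4.96% and 8.75% of all transcripts (13.7% together), and 3 of 8 had an unadjusted p under 0.05, against 32.4%. With the replicate number as a block, 0 of 8 and 7.97% of all transcripts were called in that comparison, and with strain as a block 3 of 8 and 13.8%. SSC.3, the only C57Bl/6J line of that fit, has no weight in the strain-blocked difference. In MASC minus ESC 0 of 8 were called, against 0.0184% of all (0.00306% higher, 0.0153% lower), and 2 of 8 (Rian and Mirg) had an unadjusted p under 0.05, against 2.92%. In iPS minus ESC 0 of 8 were called, against 0.116% (0.0551% higher, 0.0612% lower), with 2 of 8 (Rian and Mirg again) under the unadjusted p, against 8.03%. Groups did not overlap for 1 of 8 in MASC minus SSC (25.3% of all transcripts), 4 of 8 in ESC minus SSC (37.5%), 2 of 8 in MASC minus ESC (5.59%) and 3 of 8 in iPS minus ESC (39.8%). The median difference of the 8 was -0.58, 0.56, -0.34 and -0.4 in that order, and that of all transcripts between -0.011 and 0.001.

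Fibroblast marker level, entered as a covariate after these values had been seen, changed which of the genes were called. With it, Mirg was lower in MASCs than in ESCs (difference -2.7, adjusted p = 0.000167, limma) and lower in iPS cells than in ESCs (-1.94, adjusted p = 0.0465). Meg3 and Rian were higher in ESCs than in SSCs (3.11 and 3.59, adjusted p = 0.0196 and 0.000807) and Dlk1 was lower (-2.2, adjusted p = 0.0254). Rasgrf1 was lower in MASCs than in SSCs (-1, adjusted p = 0.0313). In these fits 15.9%, 15.1%, 0.0214% and 0.153% of all transcripts were called in MASC minus SSC, ESC minus SSC, MASC minus ESC and iPS minus ESC. Leaving out MASC.1, SSC.1, SSC.3 and ESC.1 instead gave -2.74 (adjusted p = 0.0197) for Mirg in MASC minus ESC and -2.2 (adjusted p = 0.0145) in iPS minus ESC, with 0.113% and 0.184% of all transcripts called, and Rian (4.72, adjusted p = 0.0153) and Mirg (3.01, adjusted p = 0.0029) were called in ESC minus SSC. In that fit Meg3 (4.54, adjusted p = 0.092) and Dlk1 (-0.98, adjusted p = 0.524) in ESC minus SSC and Rasgrf1 in MASC minus SSC (-1.41, adjusted p = 0.0639) were not called, where 11% and 15% of all transcripts were. A single ESC line then stood for its group and was assumed to vary like the others.

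The Dlk1-Dio3 interval (chr12:110691033-111519307, mm9) held 15 rows of at least 200 bases from 9 gene symbols and 67 shorter rows. Of the longer rows, Mirg was called in ESC minus SSC and 0 of 15 in each of the other 3 comparisons (limma), where 2 (MASC minus SSC), 6 (MASC minus ESC) and 6 (iPS minus ESC) had an unadjusted p under 0.05, against 39.9%, 2.92% and 8.03% of all transcripts. In ESC minus SSC 7 of 15 did, against 32.4%. Rtl1, a retrotransposon-derived gene of the paternal copy, was at 1.18 and 0.229 FPKM in ESCs and at 0.007 to 0.134 FPKM in SSCs, a difference of 0.63 (adjusted p = 0.0313, limma) under the size required. The noncoding 6430411K18Rik, which overlaps Rtl1, was at 1.73 and 0.825 FPKM in ESCs and at most 0.327 in SSCs, a difference of 0.97 (adjusted p = 0.0103), also just under that size. Whether the counting used strand is not stated, so reads of this overlapping pair cannot be told apart. Dio3os did not pass (ESC minus SSC -0.03, adjusted p = 1), and 3110009F21Rik was at 0.016 FPKM or less in all samples. The 4 minor Dlk1 models and the 2 minor Meg3 models were at 1.79 and 18.2 FPKM at most.

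**Figure D5:**
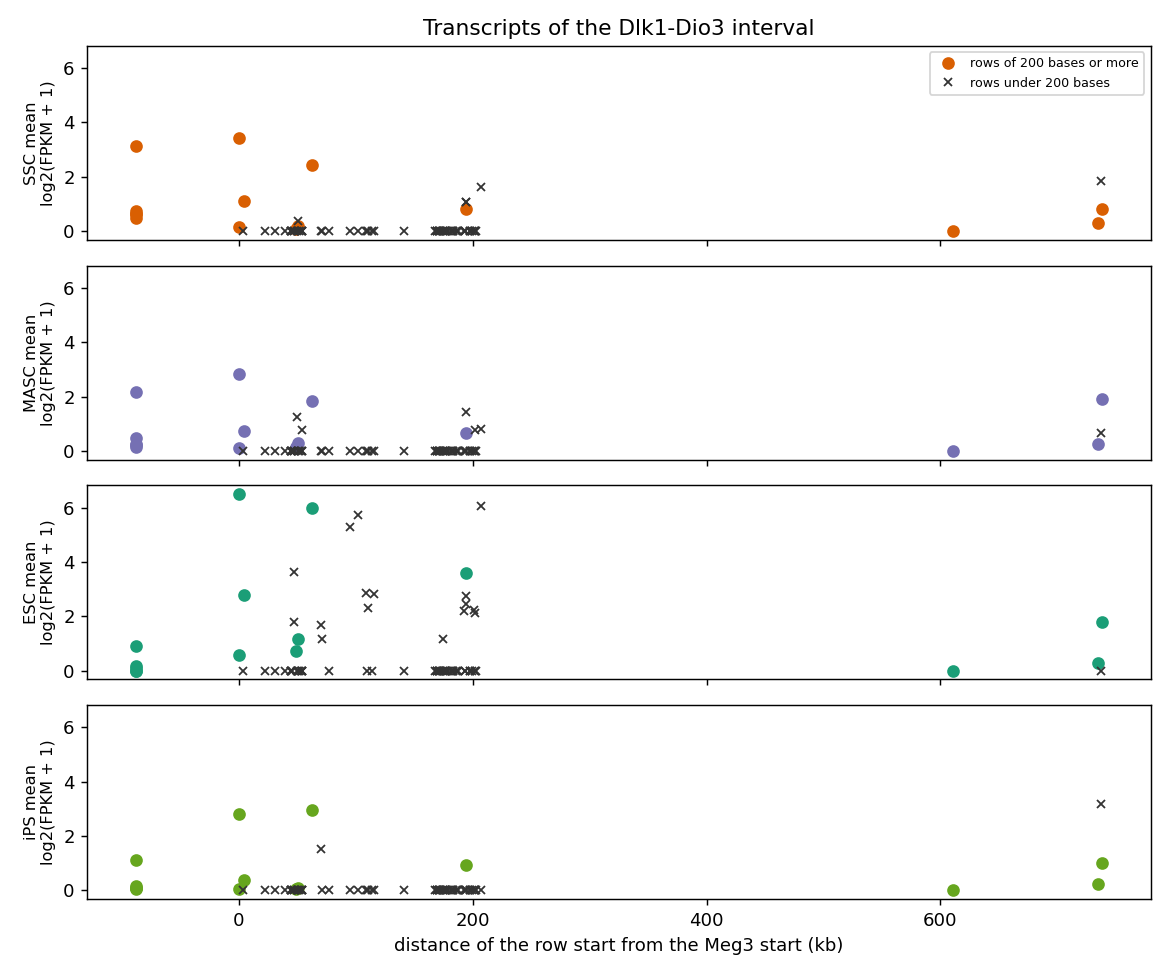
Mean log2(FPKM + 1) of every transcript row of the Dlk1-Dio3 interval, by distance of its start from the Meg3 start in kb, for SSCs, MASCs, ESCs and iPS cells. Circles are rows of at least 200 bases and crosses shorter rows. Of the 4 cell types ESCs have the most short rows above 0. Every short row of the interval, at 0 or not, starts downstream of the Meg3 start.

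Of the 67 short rows, which are snoRNAs and miRNA precursors, 40 were listed at 0 in all 17 samples. ESC.1 and ESC.2 had 14 and 11 above 0, MEF 17, the SSC lines 1 to 5, the MASC lines 0 to 5 and the iPS lines 3 each. In ESC minus SSC 3 of 67 were called higher, against 4.96% of all transcripts, and in MASC minus ESC the same 3 were called lower, against 0.0153%. In MASC minus SSC 0 of 67 were called by limma, with 0 under an unadjusted p of 0.05. AF357425, a snoRNA row inside Rian, was at 53.0 and 27.9 FPKM in the ESC lines and 24.4 in MEF, and was listed at 0 in all SSC, MASC, iPS and HSC samples. AF357426, a second one, was at 87.9 and 30.9 FPKM in the ESC lines and listed at 0 in the other 15. Mir3070b was at 11.2 and 11.8 FPKM in ESCs, 19.3 in HSC.2 and 5.16 in MEF, and was listed at 0 elsewhere. A group in which all lines are at 0 has no spread, so the adjusted p (1.65e-07, 2.82e-06 and 4.66e-15 in ESC minus SSC, limma) take their size largely from that and are given for completeness. Both snoRNA rows lie inside Rian, and whether their reads come from the snoRNAs or from unspliced Rian was not tested. The 2 snoRNAs are shown because their rows were called, at chr12:110874222-110874290 and chr12:110881048-110881114 (mm9, plus strand, as Rian). Box C (TGATGA) and box D (CTGA), the letters such RNAs are named for, are in capitals wherever they occur.

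AF357425: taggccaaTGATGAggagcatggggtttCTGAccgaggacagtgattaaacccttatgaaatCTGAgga

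AF357426: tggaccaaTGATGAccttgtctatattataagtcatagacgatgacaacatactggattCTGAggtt

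The neighbours within 200 kb of H19-Igf2 (31 rows of 200 bases or more) and Rasgrf1 (8 rows) include the rows of H19, Igf2 and Rasgrf1 themselves. Of these, the Igf2 model named above was the single row called in MASC minus SSC, against 15.6% of all transcripts. In ESC minus SSC, MASC minus ESC and iPS minus ESC 0 were called by limma, against 13.7%, 0.0184% and 0.116%. There 0, 3 and 3 of the H19-Igf2 rows had an unadjusted p under 0.05, against 32.4%, 2.92% and 8.03%. Of the Rasgrf1 rows, 0 did in each. Over all 17 samples, the transcripts whose log2 levels followed Meg3 most closely among 15811 were Rian (r = 0.963), Mirg (0.921) and Mir1906-2 (0.906). Those of Rian and Mirg were each other (0.97), Meg3 and Mir1906-2. For H19 they were Tmsb10 (0.837), Aifm2 and Sun1, for Igf2 Rpl38 (0.808), Ndufs5 and Tmsb10, for Dlk1 Ralgds (0.842), Agpat6 and Ctxn1, for Dio3 Mdm2 (0.864), Mras and Erf, and for Rasgrf1 Arhgap26 (0.899), Doc2g and Syt12. Lines of 1 cell type share their culture, and these values are descriptions. Across the 14 feeder-grown lines the mean log2 level of the fibroblast markers correlated with Meg3 at a Pearson r of 0.76 (Spearman rho 0.66), with Dlk1 at 0.69 (0.65), with Rian at 0.58 (0.57), with H19 at 0.57 (0.49), with Igf2 at 0.55 (0.53), with Mirg at 0.54 (0.6) and with Dio3 at 0.16 (0.14). For Rasgrf1 the signs differed, with r = -0.14 and rho = 0.45.

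The other known locus with paternal methylation holds Zdbf2 and Gpr1. Zdbf2 had mean log2 levels of 1.49 ± 0.74 in SSCs (SD, n = 4), 2.34 ± 1.05 in MASCs (n = 6), 3.08 ± 0.4 in ESCs (n = 2) and 1.7 ± 1.18 in iPS cells (n = 2). Gpr1 was low throughout, at 0.1 ± 0.11, 0.44 ± 0.48, 0.16 ± 0.04 and 0.64 ± 0.04. Neither passed in any comparison (ESC minus SSC adjusted p = 0.183 for Zdbf2, limma), and 0 of 2 had an unadjusted p under 0.05 in each.

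Many of the factors that write, read and erase imprints differed between SSCs and MASCs, where 0 of the 8 imprinted genes were called. Of 14 such factors, 7 were called higher in MASCs than in SSCs and 2 lower, against 6.04% and 9.6% of all transcripts, with a median difference of 1.27. Zfp57, which binds the methylated hexamer shown above, rose by 4.08 ± 0.23 (adjusted p = 1.91e-06, limma), and Trim28, its corepressor, by 1.56 ± 0.15. The de novo methyltransferase Dnmt3b rose by 4.02 ± 0.35 and its cofactor Dnmt3l by 6.82 ± 0.36. Among the enzymes that oxidize 5-methylcytosine, Tet1 rose by 4.32 ± 0.42 and Tet2 by 2.74 ± 0.3, whereas Tet3 fell by 1.85 on the log2 scale. Dppa3, which protects imprints after fertilization, rose by 3.89 ± 0.66. Ctcfl, the germ cell paralogue of Ctcf, fell by 1.73. Ctcf (0.86, adjusted p = 0.00404), Dnmt1 (-0.61, 0.0341), Uhrf1 (0.98, 0.058), Dnmt3a (0.36, 0.204) and Zfp445 (0.32, 0.483) were not called. In MASC minus ESC 0 of the 14 were called by limma (1 with an unadjusted p under 0.05), and the differences of Zfp57 (0.05), Dnmt3l (0.12) and Tet1 (-0.58) had SEs of 0.29, 0.46 and 0.53.

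Of 20 partners of the 8 genes (receptors, binding proteins, Notch receptors, deiodinases and Ras proteins), 4 were called higher and 3 lower in MASCs than in SSCs, against 6.04% and 9.6% of all transcripts, with a median difference of 0.06. Igf1r, the receptor through which IGF2 signals growth, fell by 2.11, and Igf2bp1, which binds Igf2 mRNA, rose by 1.61 ± 0.14. Dlk2, the paralogue of Dlk1, fell by 1.41, and among Notch receptors Notch3 rose by 1.87 ± 0.41 and Notch2 fell by 1.2. Hras rose by 1.36 ± 0.2. Of 12 genes under control regions methylated on the maternal copy, 2 were called higher and 1 lower, against the same shares. Snrpn rose by 3.14 ± 0.31 and Peg10 by 2.24 ± 0.33, and Inpp5f fell by 2.17 (all by limma, adjusted p at most 0.000698). Each gene is given by its transcript with the highest mean FPKM, and whether that transcript is the imprinted one was not examined. In MASC minus ESC and iPS minus ESC 0 genes of either list were called by limma, with 0 and 2 partners and 2 and 3 maternally marked genes under an unadjusted p of 0.05.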

How the data were processed

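The authors deposited a Cufflinks table per sample with an FPKM for each RefSeq transcript, its confidence bounds and a coverage signal, in reads per base. Per the labels and methods, Truseq libraries were aligned to mm9 with TopHat2 2.0.11, duplicate and multiply mapped reads were removed, and Cufflinks (version not given in the sources used here) ran with upper-quartile and GC normalization. Removal of multiply mapped reads lowers genes with near copies. Rows were kept where the identifier was 1 RefSeq transcript (32661 of 33262). Levels were compared as log2(FPKM + 1), without a filter, with limma 3.58.1 in R 4.3.3 (lmFit, eBayes) over the 12 SSC, MASC and ESC lines, or over 17 samples for iPS cells, adjusting p over all transcripts by Benjamini-Hochberg. This step was tested on simulated data. MEF, a single sample, entered no test of its own. The 8 genes and all lists were chosen with earlier results of these data known. Named genes are the 8, all imprint control factors, Zdbf2 and Gpr1, at most 6 called genes of each other list, the rows of the interval that are at least 200 bases or called, Mir675, and the 3 transcripts most like each gene. Mir483 and the other neighbours were named after their values were seen. Motifs were searched in mm9 and in RefSeq promoters.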

Additional observations from a re-analysis of the deposited data

Results flagged for a closer look

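Among 16 combinations of a gene with SSCs or MASCs, 2 had a line far from the rest of its group by Dixon's ratio of gap to range on log2(FPKM + 1), a check that marks about 1 in 20 groups by chance. Rasgrf1 in SSC.2 was at 3.85 FPKM, with 0.351 to 0.510 FPKM in the other 3 SSC lines and a gap of 0.913 of the range. Mirg in MASC.1 was at 2.80 FPKM, with a gap of 0.647 of the range, and MASC.1 had the highest fibroblast markers of the feeder-grown lines (median 18.5% of MEF).

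Between strains, 24 combinations of a gene with a comparison could be set side by side. In MASC minus ESC, Dio3 was higher in both Oct4-GFP MASC lines than in ESC.1, by 1.66 on the log2 scale, and lower in both 129mix MASC lines than in ESC.2, at -0.87. Each strain has 1 ESC line, and the difference between strains was not tested.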

How the results depend on the processing

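The files hold FPKM with confidence bounds of Cufflinks and no read counts, and the bounds are wide for low values such as Mirg in SSC.2 (0.00905 to 0.184 FPKM). ESCs and iPS cells have 2 lines each. Of 1283 alternative values computed, 1122 kept their direction and side of the threshold or, for levels and counts, stayed within the allowed spread, and 44 reversed. The cause of a change was not tested. Rasgrf1 did not pass the FPKM filter and has no value under it. The fibroblast covariate and the fits without 4 lines were chosen after seeing the data.

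In MASC minus SSC, 1 of the 8 genes was called higher with strain as a block, and 1 lower with a pseudocount of 0.1 and with the fibroblast covariate. The strain block gives SSC.3, MASC.5 and MASC.6 no weight in this difference. H19 turned positive with the replicate block (0.27), the strain block (1.92), the covariate (0.3) and without the 4 lines (1.43). Meg3 did so in the same order at 0.02, 1.32, 0.11 and 0.86. Rian turned positive with the strain block (0.68) and without the 4 lines (0.33), Mirg with the strain block (0.45), the covariate (0.09) and without the 4 lines (0.27), and Dlk1 without the 4 lines (0.15). Partners called numbered 7, against 3 with the replicate block, 1 at a log2 difference of at least 2 and 1 with unadjusted p at that size. Maternally marked genes called numbered 3, against 5 with a pseudocount of 0.1 and 5 with quantile normalization. Neighbours called, counted with the rows of H19, Igf2 and Rasgrf1, numbered 1. The alternatives gave 3 (pseudocount), 2 (filter), 2 (quantile), 0 (summed per symbol), 3 (replicate block), 4 (strain block), 0 (difference of at least 2), 0 (unadjusted) and 3 (covariate).

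In ESC minus SSC, the genes called higher numbered 1, against 2 with the filter, 2 over 17 samples, 0 with the replicate block, 3 with the strain block, 2 with unadjusted p, 3 with the covariate and 2 without the 4 lines. Those called lower were 1 with the pseudocount, 1 with unadjusted p and 1 with the covariate. Partners called were 6, against 3 (replicate block), 1 (difference of at least 2), 1 (unadjusted) and 3 (without the 4 lines). Long rows of the Dlk1-Dio3 interval called were 1, against 4 (pseudocount), 2 (filter), 2 (quantile), 2 (17 samples), 0 (replicate block), 5 (strain block), 3 (unadjusted), 5 (covariate) and 3 (without the 4 lines), and short rows were 3, against 10 (unadjusted) and 8 (without the 4 lines). Neighbours were 0, against 1 with the pseudocount. H19 reversed with the replicate block (-0.87) and Igf2 with the strain block (0.54).

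In MASC minus ESC, genes called lower were 0, against 2 (unadjusted), 1 (covariate) and 1 (without the 4 lines). Long rows were 0, against 3, 1 and 1 in the same settings, and short rows 3, against 1 (replicate block), 10 (unadjusted) and 8 (without the 4 lines). Neighbours were 0, against 1 unadjusted. H19 reversed with the replicate block (1.14), the strain block (0.14) and the covariate (0.13), Dio3 without the 4 lines (-0.96) and Rasgrf1 with the covariate (-0.08). In iPS minus ESC, genes called lower were 0, against 2 (unadjusted), 1 (covariate) and 1 (without the 4 lines). Long rows were 0, against 1 (quantile), 3 (unadjusted), 1 (covariate) and 1 (without the 4 lines), and short rows 2, against 10 (unadjusted) and 5 (without the 4 lines). Dlk1 reversed with the pseudocount (-0.34), and Rasgrf1 with the strain block (0.12) and without the 4 lines (0.01).

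Leaving out 1 line at a time, genes called higher in MASC minus SSC ranged from 0 to 1 (without MASC.6), long interval rows from 0 to 1 (without MASC.6) and neighbours from 1 to 2 (without MASC.5). The differences ranged from -1.87 to 0.51 for H19, 0.34 (without SSC.4) to 1.45 (without SSC.3) for Igf2, -1.07 to -0.46 (without SSC.2) for Rasgrf1, -1.51 to 0.25 for Meg3 and -0.43 to 0.15 for Mirg. In ESC minus SSC, genes called higher ranged from 0 (without ESC.1) to 2 (without SSC.3), long rows from 0 to 3, short rows from 3 to 9 (without ESC.2), H19 from -1.17 to 1.32 and Igf2 from -1.17 to 0.73. In MASC minus ESC, short rows ranged from 3 to 9, H19 from -1.89 to 0.51, Dio3 from -0.77 to 1.00 and Rasgrf1 from -0.01 to 0.02. In iPS minus ESC, long rows ranged from 0 to 1, short rows from 2 to 8, Igf2 from -1.22 to 2.25, Dlk1 from -0.81 to 1.18, Dio3 from -1.67 to 0.10 and Rasgrf1 from -0.02 to 0.01.

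Lines above the highest, in place of the median, fibroblast marker numbered 2 for H19, 7 for Igf2, 2 for Meg3, 3 for Rian, 3 for Mirg and 8 for Dlk1. In iPS cells the mean log2 level was 2.88 for Meg3, 3.06 for Rian and 0.99 for Mirg with quantile normalization and 2.87 for Meg3 when summed per symbol. Summing also gave 1.07 for Dlk1 in ESCs, 0.09 for Rasgrf1 in MASCs and 0.13 for Rasgrf1 in HSCs.

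Replicate numbers recur across cell types, and no source says that they pair lines. Deviations of same-numbered lines correlated at -0.225 to 0.185 in 4 MASC-SSC pairs, 0.208 to 0.262 in 2 ESC-SSC pairs and -0.355 to 0.414 in 2 MASC-ESC pairs, so the lines were not treated as paired. With the replicate block the share of transcripts called in ESC minus SSC was 7.97%, against 13.7% without it.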
